A study of Homo sapiens with 6 samples.

Results

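The genes described here were 39 genes of the lysosome and of autophagy, measured by RNA sequencing in K562 cells. They were chosen by name, as the rows whose NCBI Gene identifier belonged to a list of 39 symbols. They made up 39 of 25702 identifiers in the count tables. All 39 passed the filter on low counts that was applied to all genes, so they were also 39 of the 15431 genes tested.

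K562 is an established line derived from chronic myeloid leukaemia. The cells were transfected transiently with a pCMV-HA plasmid that was empty (EV), or that carried MXD3 or the fusion STIM1::MXD3, both with a tag at the carboxyl end. The study made 2 independent transfections per group and so 6 libraries, and the labels list no other treatment. All 3 groups thus shared the cell line and the plasmid backbone, the viral promoter on the plasmid drove expression in whichever cells took it up, and the libraries were made from the culture as a whole.

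The libraries held 53048343 to 63835779 counts. MXD3 was at 9.33 and 11.7 counts-per-million (CPM) in the EV libraries, 2523 and 2162 in the MXD3 libraries, and 1975 and 1849 in the STIM1::MXD3 libraries. This gene thus set EV apart from both constructs, as labelled. STIM1, part of which lies in the fusion, was higher in STIM1::MXD3. Its log2 fold change was 1.28 against EV and 1.42 against MXD3 (DESeq2 with the replicate number in the model). All 9 genes of a K562 marker list were above 1 CPM in every group, at 145 to 1630 CPM. Of 9 genes that mark other cell types, 4 reached 1 CPM in each group, and their summed level was 88.4 to 103 CPM in EV, 90.9 to 96.6 in MXD3 and 89.5 to 111 in STIM1::MXD3. Nearly all of that was EPCAM, at 77.9 to 101 CPM, and which cells it came from was not tested. In bulk libraries, fewer cells that express a gene and less RNA per cell cannot be told apart.

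Lysosomes are acidic organelles in which hydrolases break down material delivered by endocytosis and by autophagy, the process in which a double membrane closes around cytoplasm and fuses with the lysosome. A proton pump, the V-ATPase, acidifies the lumen. TFEB, TFE3 and MITF are related basic helix-loop-helix leucine zipper transcription factors that activate many lysosomal and autophagy genes through a promoter element built around the E-box CACGTG. MYC with MAX, and MXD proteins with MAX, bind E-boxes with the same core, and MYC is known to oppose TFEB and TFE3 at lysosomal genes. The comparisons therefore give the level of this gene programme under MXD3, which is known to oppose MYC, and under the fusion. For K562 cells the paper reports MYC activation under the fusion. It saw no significant enrichment of MYC gene sets for MXD3 against the empty vector.

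The E-box core was looked for first in the promoter windows of the members. RefSeq windows (GRCh38.p14), from 250 bases before to 50 bases after each annotated start site, could be matched by symbol for 30 of the 39 members. The windows of LAMP2, UVRAG, ATP6V0E1, HEXA, CTSB, ATP6V1B2, ATP6V1A, ATP6V1H and PSAP were not used here. CACGTG, which reads the same on both strands, was present in 8 of 30 members (26.7%), against 8.77% of all 27305 genes in the table and 12.3% of its 11468 genes tested here. The longer form TCACGTGA, which contains CACGTG, was present in 5 of 30 (16.7%), against 1.18% of all genes and 2.08% of those tested. Among 92 further lysosomal and autophagy genes with a window, 21 (22.8%) held CACGTG. A member had the motif if any of its windows held it, and CD63 had it in 1 of 8 windows. The members were chosen by name from a gene programme known for this element. Their higher share of motifs is therefore a description and no independent result. A match is a stretch of letters, and binding was not measured.

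The sequences below are the 250 bases upstream of the start site in 6 of the 8 members with the motif. They show how the core is placed from gene to gene, and they are the promoters referred to where these genes are described. They read 5′ to 3′ in the direction of the gene, with CACGTG in capitals. Their positions in GRCh38.p14 are CD63 chr12:55729010-55729259 (minus strand), CTSD chr11:1763928-1764177 (minus strand), GAA chr17:80101331-80101580 (plus strand), NEU1 chr6:31862822-31863071 (minus strand), ATP6V0D1 chr16:67481158-67481407 (minus strand) and LAMP1 chr13:113296989-113297238 (plus strand).
CD63: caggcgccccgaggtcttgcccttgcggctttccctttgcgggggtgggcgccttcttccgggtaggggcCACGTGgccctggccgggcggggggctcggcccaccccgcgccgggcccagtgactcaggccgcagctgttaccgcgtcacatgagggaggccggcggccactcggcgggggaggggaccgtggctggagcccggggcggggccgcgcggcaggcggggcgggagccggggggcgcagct
CTSD: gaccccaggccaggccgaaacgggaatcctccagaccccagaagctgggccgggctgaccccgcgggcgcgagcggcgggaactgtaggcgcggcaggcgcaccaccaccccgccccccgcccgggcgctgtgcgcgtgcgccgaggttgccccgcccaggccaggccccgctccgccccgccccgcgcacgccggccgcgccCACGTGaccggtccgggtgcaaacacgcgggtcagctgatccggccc
GAA: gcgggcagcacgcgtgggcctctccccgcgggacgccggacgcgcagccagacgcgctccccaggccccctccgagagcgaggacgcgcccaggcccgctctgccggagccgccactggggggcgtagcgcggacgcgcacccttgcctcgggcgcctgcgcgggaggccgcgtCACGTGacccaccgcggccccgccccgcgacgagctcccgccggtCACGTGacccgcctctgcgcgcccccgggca
NEU1: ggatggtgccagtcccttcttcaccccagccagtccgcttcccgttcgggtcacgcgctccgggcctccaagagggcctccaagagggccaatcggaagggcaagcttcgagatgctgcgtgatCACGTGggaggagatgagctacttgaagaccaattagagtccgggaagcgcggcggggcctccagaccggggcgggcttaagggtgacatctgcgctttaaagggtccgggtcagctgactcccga
ATP6V0D1: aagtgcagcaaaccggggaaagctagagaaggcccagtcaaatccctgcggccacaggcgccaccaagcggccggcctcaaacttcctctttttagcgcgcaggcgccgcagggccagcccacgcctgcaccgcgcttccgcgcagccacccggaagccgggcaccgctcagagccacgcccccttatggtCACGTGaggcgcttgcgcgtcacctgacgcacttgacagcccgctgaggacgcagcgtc
LAMP1: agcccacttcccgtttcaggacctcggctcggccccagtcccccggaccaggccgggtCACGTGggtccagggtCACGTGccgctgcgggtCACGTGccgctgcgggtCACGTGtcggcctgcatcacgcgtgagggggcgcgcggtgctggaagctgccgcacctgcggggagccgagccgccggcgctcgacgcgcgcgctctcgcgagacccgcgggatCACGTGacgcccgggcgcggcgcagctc

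LAMP1 held the most copies, 6 in its window, of which 5 lie within the printed bases and the sixth reaches past the start site. Its first 4 copies begin 192, 176, 159 and 142 bases before the start. GAA held 2 copies, beginning 76 and 31 bases upstream, both within TCACGTGA. The single copies in CTSD and ATP6V0D1 begin 47 and 59 bases upstream, while those in NEU1 and CD63 lie farther out, at 126 and 180 bases. The other two members with the motif were MCOLN1 and CTSA, each with 2 copies within 42 bases of the start.

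In EV cells the 39 genes covered a wide range of levels, given here per length as FPKM, which is the TMM-scaled CPM per kilobase of the canonical transcript. In every library, 35 of the 39 were above the median of all genes tested. The median member stood at 39.8 to 48.3 FPKM across the 6 libraries, and the median gene tested at 6.59 to 6.80. Together the members held 0.726% to 0.821% of all counts in a library.

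**Figure D1:**
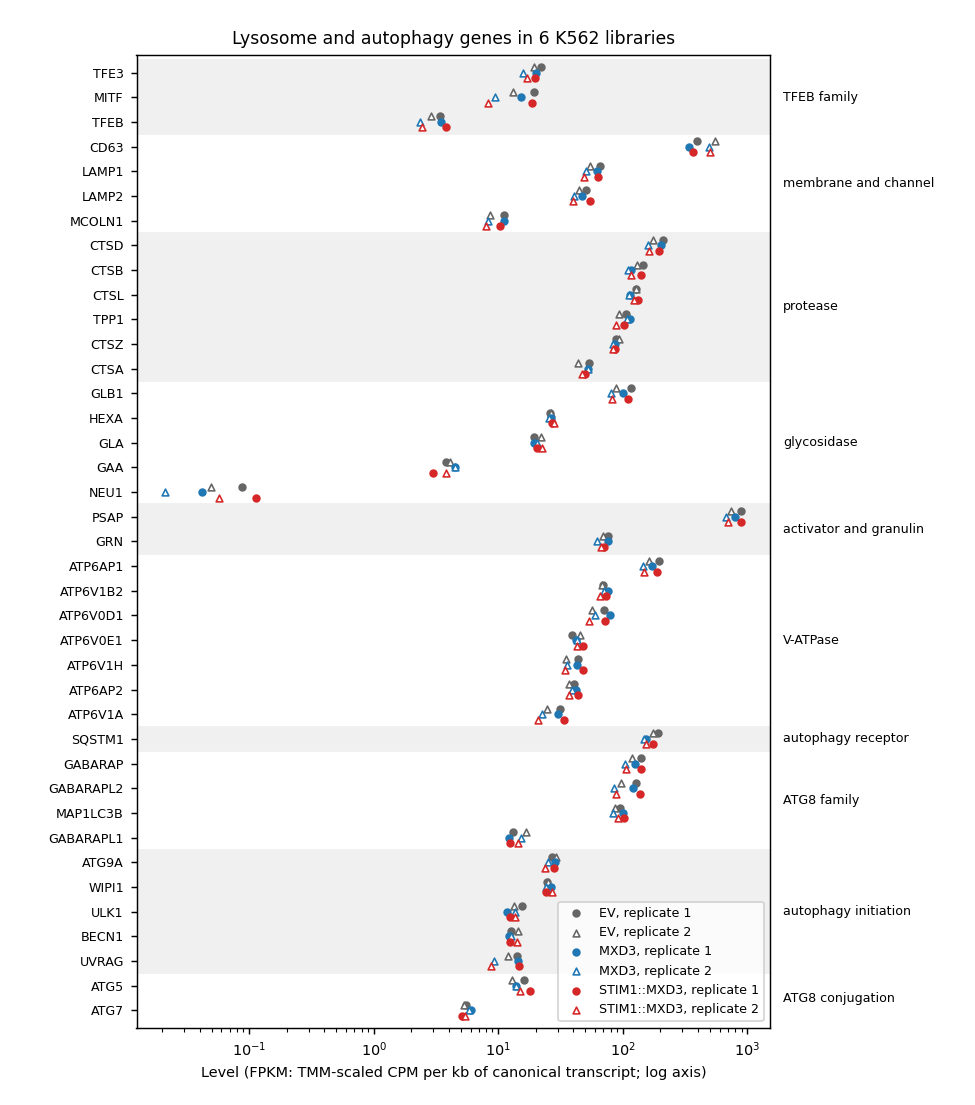
Level of each of the 39 genes in the 6 libraries, in FPKM on a log axis, with genes grouped by role, plasmid groups in colour, replicate 1 as filled circles and replicate 2 as open triangles. PSAP lies at the right end in all libraries and NEU1 at the left end, and the median member is at 43.6 and 43.5 FPKM in the EV libraries.

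PSAP, the precursor of the saposins that help lysosomal enzymes reach their lipid substrates, had the highest level, at 816 ± 100.4 FPKM (SD, n = 2) in EV. It alone supplied 26.4% to 29.1% of all member counts. CD63, a tetraspanin of late endosomes and lysosomes, followed at 474 ± 107 FPKM in EV. The next in order were the aspartic protease cathepsin D (CTSD, 192 ± 25.3 FPKM), the autophagy receptor SQSTM1 (184 ± 13.0 FPKM) and the V-ATPase accessory subunit ATP6AP1 (179 ± 22.2 FPKM). These last 3 differed by less than the SD of CTSD, and their order was not tested.

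Levels also varied within roles. Among the glycosidases, beta-galactosidase (GLB1) was at 103 FPKM in EV and acid alpha-glucosidase (GAA), which degrades glycogen, at 3.93 ± 0.20. Of the ATG8 proteins, which coat the autophagosome membrane, GABARAP was the highest at 130 FPKM in EV and GABARAPL1 the lowest at 14.9. Genes of autophagy initiation were lower, from 13.0 (UVRAG) to 28.2 FPKM (ATG9A, a scramblase that supplies membrane). ATG5 and ATG7, which act in the conjugation of ATG8 proteins to lipid, were at 14.5 and 5.41 FPKM.

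Of the transcription factors of the TFEB family, TFEB lay below the median gene tested and the other two above it. In EV, TFE3 was at 20.7 ± 1.75 FPKM, MITF at 16.3 ± 4.60 and TFEB at 3.15 ± 0.36. TFEB lay below the other 2 by more than the spread between libraries, while TFE3 and MITF differed by less than the SD of MITF.

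NEU1, a sialidase, could not be read in these files. Its counts were 15 and 10 in EV, 9 and 4 in MXD3, and 21 and 12 in STIM1::MXD3. The gene lies in the major histocompatibility complex (GRCh37 chr6:31825436-31830682, minus strand), and counts were low across that region in these tables. Only 2 of 102 annotated genes within 1 Mb of NEU1 (1.96%) had a mean count of at least 100, against 49.8% of all other annotated genes. Genes that cells in general express strongly were also low there, such as CSNK2B with 28 to 70 counts. So were TUBB with 10 to 22 and RPS18 with 27 to 69, which lie outside that window, 1.14 and 1.41 Mb from NEU1. The values of NEU1 are therefore counted among the 39 below but not interpreted, and ranges are also given without it.

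No member passed the threshold of an adjusted p of 0.05 in any of the 3 comparisons. In MXD3 against EV, 0 of 39 were called by the quasi-likelihood test of edgeR, beside 0.00648% of all genes tested, and 0 had an unadjusted p under 0.05, beside 1.86% of all genes. In STIM1::MXD3 against EV the members called were 0 (all genes 0.00648%) and those with an unadjusted p under 0.05 were also 0 (all genes 0.953%). In STIM1::MXD3 against MXD3 both counts were again 0, beside 0.0% and 1.01% of all genes. The edgeR fit thus called no gene at all between the constructs. It did not call STIM1, which had a log2 fold change of 1.42 in DESeq2 with the replicate number in the model. Against EV it called 1 of 15431 genes in each comparison. A count of 0 members in this fit therefore says little about the members. DESeq2 called 0 members in each comparison, beside 0.0194%, 0.0194% and 0.00648% of all genes in the same order. Both comparisons against EV used the same EV libraries.

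The intervals show what size of change the fit without a replicate block could have missed. Leaving NEU1 aside, the fitted log2 fold changes of 38 members ran from -0.40 to 0.19 in MXD3 against EV, from -0.27 to 0.18 in STIM1::MXD3 against EV, and from -0.40 to 0.24 in STIM1::MXD3 against MXD3. All 38 of the 95% intervals contained 0 in each comparison. In each, 37 of 38 lay within 1 log2 unit of 0, the exception being MITF. Only 18, 21 and 22 lay within 0.5 in the same order, and for the remaining members this fit did not exclude a change of that size. With the replicate number as a block, described further on, 35, 36 and 37 of 38 lay within 0.5. All 38, MITF included, then lay within 1 in each comparison.

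**Figure D2:**
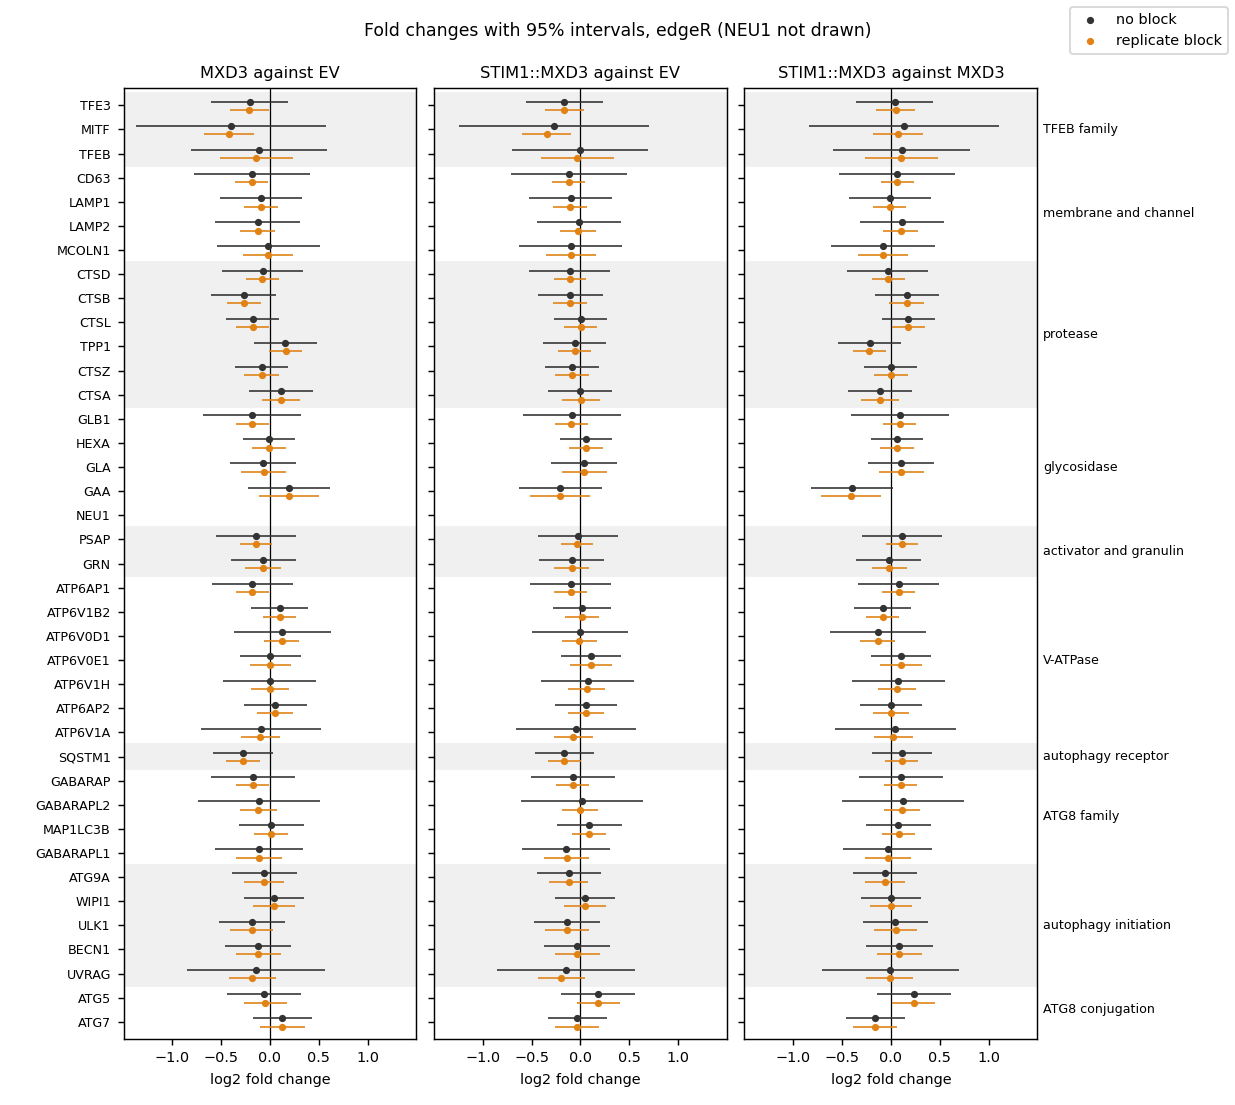
Log2 fold changes (points) with 95% intervals (lines) of 38 members in 3 comparisons, from edgeR without (dark) and with (orange) the replicate number as a block. All dark intervals cross 0, and the orange ones are narrower, with 29, 37 and 34 of 38 crossing 0 from the left panel to the right.

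As a group, the members lay slightly on the lower side of EV. In MXD3 against EV, 29 of 39 (74.4%) had a negative log2 fold change with a median of -0.09, beside 49.8% and a median of 0.00 over all genes tested. In STIM1::MXD3 against EV, 27 of 39 (69.2%) were negative with a median of -0.05, beside 47.9% and 0.01. Between the constructs, 14 of 39 (35.9%) were negative and the median was 0.06, beside 47.9% and 0.01. These are descriptions of small differences, since no member passed the test.

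The sign of each of these medians hung on single libraries. Without EV replicate 1 the median in STIM1::MXD3 against EV was 0.04, and without STIM1::MXD3 replicate 2 it was 0.06. It was -0.14 without EV replicate 2 and -0.19 without STIM1::MXD3 replicate 1. In MXD3 against EV the median was 0.01 without MXD3 replicate 2, -0.01 without EV replicate 1, -0.18 without EV replicate 2 and -0.14 without MXD3 replicate 1. Between the constructs it was -0.05 without MXD3 replicate 2, -0.11 without STIM1::MXD3 replicate 1, 0.12 without MXD3 replicate 1 and 0.13 without STIM1::MXD3 replicate 2. Leaving out 1 library compares unequal shares of the 2 replicate numbers, between which the members differed, as described further on.

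Comparing libraries of the same number keeps that difference out. Against EV, the median log2 ratio of MXD3 was -0.05 for the libraries numbered 1 and -0.13 for those numbered 2, and that of STIM1::MXD3 was -0.02 and -0.09. Between the constructs it was 0.07 and 0.02. The summed level of all members fell in the same order in both, from EV (8556 and 7656 CPM) to STIM1::MXD3 (8469 and 7129) to MXD3 (7894 and 7063). Without PSAP the sums were 6118 and 5609 CPM in EV, 6000 and 5197 in STIM1::MXD3, and 5697 and 5198 in MXD3, so that the constructs were level among the libraries numbered 2.

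Counted gene by gene over both pairs, 22 members were lower in MXD3 than in EV in each pair (all genes 31.7%) and 6 were higher (all genes 30.4%). In STIM1::MXD3 against EV, 17 were lower in both pairs (25.2%) and 5 higher (27.0%). In STIM1::MXD3 against MXD3, 8 were lower in both (26.1%) and 18 higher (27.6%). The 22 members make up 56.4% of the 39, and the 17 make up 43.6%. Groups of 2 libraries also lay fully apart for many genes of any kind. In MXD3 against EV, both MXD3 libraries were below both EV libraries for 5 of 39 members and 2305 of 15431 genes tested. They were above both for 4 members and 2489 genes. Between the constructs, STIM1::MXD3 was fully below MXD3 for 4 members (1579 genes) and fully above for 5 (1679 genes). Such separation, where given for single genes below, is therefore only a description.

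With the replicate number as a block, intervals narrowed and more genes came near the threshold. The median standard error of the 38 members other than NEU1 went from 0.163 to 0.088 on the log2 scale. No member was called by edgeR with the block, beside 0.292% of all genes in MXD3 against EV, 0.0194% in STIM1::MXD3 against EV and 0.00648% between the constructs. At an unadjusted p under 0.05 there were 9 members in MXD3 against EV, beside 13.9% of all genes. All 9 were lower, beside 6.99% of all genes lower, and they were MITF, TFE3, CD63, CTSB, CTSL, GLB1, ATP6AP1, SQSTM1 and GABARAP. There was 1 such member, MITF, in STIM1::MXD3 against EV (all genes 8.5%), and there were 4 between the constructs (all genes 6.49%), with TPP1 and GAA lower and CTSL and ATG5 higher in STIM1::MXD3.

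SQSTM1, also known as p62, links ubiquitinated cargo to ATG8 proteins and is itself degraded by autophagy (GRCh37 chr5:179233398-179265078, plus strand). Its level was 548 and 496 CPM in the EV libraries, 440 and 422 in the MXD3 libraries, and 496 and 436 in the STIM1::MXD3 libraries. Both MXD3 libraries lay below both EV libraries, as for many genes outside the members. The STIM1::MXD3 libraries lay between, the lower of them within the MXD3 range. The log2 fold change of MXD3 against EV was -0.28 (SE 0.13, adjusted p = 0.999, edgeR), a fold of 0.825. With the replicate block it was -0.28 (SE 0.081, adjusted p = 0.146). DESeq2 with the block put it past the threshold, at -0.28 (SE 0.085, adjusted p = 0.047), and it was the only member called there (all genes 1.54%). That fit called no member in STIM1::MXD3 against EV (all genes 0.123%) or between the constructs (all genes 0.0324%). Between the constructs, however, it gave no adjusted p for many members, which therefore could not be called there. GAA, ATG5, ATG7, MITF, TFE3 and TFEB were among them. STIM1::MXD3 against EV was -0.16 (SE 0.13, adjusted p = 1.00, edgeR). The span of SQSTM1 overlaps MGAT4B and MRNIP, and the use of strand in counting is not given in the sources used here.

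MITF (GRCh37 chr3:69788607-70017487, plus strand), known as the regulator of the melanocyte lineage, had the lowest fitted value among the 38 members in both comparisons against EV. It was at 93.8 and 62.6 CPM in EV, 73.2 and 45.1 in MXD3, and 89.9 and 39.8 in STIM1::MXD3. The 2 libraries of each group lay far apart and all groups overlapped. Its log2 fold change was -0.40 (SE 0.41) in MXD3 against EV and -0.27 (SE 0.41) in STIM1::MXD3 against EV, with adjusted p = 0.999 and 1.00 in edgeR. With the replicate block these became -0.42 (SE 0.12, adjusted p = 0.138) and -0.35 (SE 0.12, adjusted p = 0.489).

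TFE3 was at 72.2 and 64.1 CPM in EV, 66.5 and 51.6 in MXD3, and 65.1 and 56.4 in STIM1::MXD3, and the groups overlapped. Its log2 fold change was -0.20 (SE 0.17) in MXD3 against EV and -0.16 (SE 0.17) in STIM1::MXD3 against EV. TFEB was at 7.93 and 6.76 CPM in EV, 8.08 and 5.48 in MXD3, and 8.90 and 5.76 in STIM1::MXD3. The range of EV thus lay inside those of both constructs. Its log2 fold changes were -0.11 (SE 0.30) and -0.00 (SE 0.30) against EV. The 95% intervals ran from -0.81 to 0.59 and from -0.70 to 0.70, so changes within those bounds were not excluded.

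None of the 6 proteases among the members passed the test in any comparison. Cathepsin B (CTSB), a cysteine protease, was at 539 and 485 CPM in EV, 435 and 415 in MXD3, and 520 and 434 in STIM1::MXD3, with both MXD3 libraries below both EV libraries. Cathepsin L (CTSL), another cysteine protease, was at 212 and 211 CPM in EV, 188 and 186 in MXD3, and 220 and 204 in STIM1::MXD3. The MXD3 libraries of CTSL lay below both EV libraries, which the STIM1::MXD3 libraries spanned. The log2 fold change of MXD3 against EV was -0.18 (SE 0.11, adjusted p = 0.999, edgeR). In that fit the spread is estimated over all 3 groups and across genes, and p-values are adjusted over all genes. Reads of CTSL may be shared with related sequences, so its level is uncertain.

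TPP1, a tripeptidyl peptidase, was at 372 and 324 CPM in EV, 400 and 376 in MXD3, and 356 and 311 in STIM1::MXD3, so that MXD3 lay above both other groups in both libraries. The log2 fold change of STIM1::MXD3 against MXD3 was -0.22 (SE 0.14, adjusted p = 1.00, edgeR), and -0.22 (SE 0.080, adjusted p = 0.696) with the replicate block. CTSD was at 432 and 358 CPM in EV, 418 and 331 in MXD3, and 399 and 334 in STIM1::MXD3, with overlapping groups.

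GAA, whose promoter holds 2 copies of CACGTG, differed most between the constructs among the 38 members (GRCh37 chr17:78075332-78093680, plus strand). It was at 14.2 and 15.3 CPM in EV, 17.0 and 16.8 in MXD3, and 11.2 and 14.4 in STIM1::MXD3. Both MXD3 libraries were above both EV libraries, and both STIM1::MXD3 libraries were below the MXD3 libraries. The log2 fold change of STIM1::MXD3 against MXD3 was -0.40 (SE 0.18, adjusted p = 1.00, edgeR), and -0.41 (SE 0.14, adjusted p = 0.683) with the replicate block. Against EV it was 0.19 (SE 0.18) for MXD3 and -0.20 (SE 0.18) for STIM1::MXD3.

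GLB1, the glycosidase with the highest level in EV, was at 295 and 224 CPM in EV, 254 and 202 in MXD3, and 279 and 208 in STIM1::MXD3. It was lower in MXD3 than in EV in each pair, while the groups overlapped, and its log2 fold change was -0.19 (SE 0.21, adjusted p = 0.999, edgeR). PSAP was at 2437 and 2047 CPM in EV, 2197 and 1865 in MXD3, and 2468 and 1931 in STIM1::MXD3. Its log2 fold change was -0.14 (SE 0.17) in MXD3 against EV and -0.03 (SE 0.17) in STIM1::MXD3 against EV.

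Among the membrane proteins, CD63 was at 407 and 563 CPM in EV, 351 and 504 in MXD3, and 376 and 517 in STIM1::MXD3. The 2 libraries of a group differed by more than the groups did, and the log2 fold change of MXD3 against EV was -0.18 (SE 0.25, adjusted p = 0.999, edgeR). For the 7 V-ATPase members the medians of the log2 fold changes against EV were 0.01 (MXD3) and 0.02 (STIM1::MXD3). ATP6AP1 was at 401 and 336 CPM in EV, 354 and 297 in MXD3, and 386 and 303 in STIM1::MXD3, and the groups overlapped. ATP6V0E1, a subunit of the membrane sector of the pump, was at 56.1 and 64.0 CPM in EV, 59.8 and 60.7 in MXD3, and 68.2 and 61.3 in STIM1::MXD3. Its log2 fold change was 0.11 (SE 0.13) in STIM1::MXD3 against EV, and it shares its span with SNORA74B.

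In the autophagy machinery, SQSTM1 is described above. The 5 members of initiation had a median log2 fold change of -0.12 in both comparisons against EV. The 2 of ATG8 conjugation had medians of 0.04 in MXD3 against EV and 0.07 in STIM1::MXD3 against EV. GABARAP was at 187 and 156 CPM in EV, 166 and 137 in MXD3, and 184 and 141 in STIM1::MXD3, with overlapping groups. The 4 ATG8 genes had a median log2 fold change of -0.11 in MXD3 against EV and -0.03 in STIM1::MXD3 against EV. The counts of GABARAPL1 and MAP1LC3B, which have closely similar copies elsewhere in the genome, are uncertain. ATG9A was at 102 and 111 CPM in EV, 109 and 95.5 in MXD3, and 106 and 90.3 in STIM1::MXD3.

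ATG5 and ATG7 act in the same pathway, ATG7 as the activating enzyme and ATG5 in the complex that attaches ATG8 proteins to lipid. ATG5 was at 51.2 and 41.3 CPM in EV, 44.3 and 44.6 in MXD3, and 57.2 and 47.7 in STIM1::MXD3, the STIM1::MXD3 libraries lying above the MXD3 libraries. The log2 fold change between the constructs was 0.24 (SE 0.16, adjusted p = 1.00, edgeR). ATG7 was at 29.2 and 28.5 CPM in EV, 32.2 and 30.8 in MXD3, and 27.4 and 29.0 in STIM1::MXD3. It lay in the opposite order, with a log2 fold change between the constructs of -0.16 (SE 0.13, adjusted p = 1.00, edgeR). ATG5 overlaps PRDM1 and ATG7 overlaps VGLL4 in the annotation, and 14 of the 39 members overlap some other gene that was counted.

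More members were called between replicate numbers than between plasmids. The blocked fit gives the former as replicate 2 against replicate 1, a comparison that was added after the data had been seen. In it, 18 of 39 members were called, 16 lower (all genes 16.1%) and 2 higher (all genes 13.1%) in replicate 2. The median over the members was -0.17 on the log2 scale, beside 0.01 over all genes tested, and 30 of 39 were lower. The same fit called no member between plasmids. The counts rest on unequal numbers, since each replicate number has a library from all 3 groups and each plasmid group has 2 libraries. What the numbers stand for beyond separate transfections is not stated, and its part in the plasmid comparisons, each of which holds 1 library of either number per group, was not tested.

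MITF differed most among the members called. It was lower in replicate 2 by a log2 value of -0.82 (SE 0.098, adjusted p = 3.6e-05, edgeR), a fold of 0.568, and the log2 ratios were -0.58 in EV, -0.70 in MXD3 and -1.17 in STIM1::MXD3. All 3 members of the TFEB family were lower in replicate 2, with TFEB at -0.47 (SE 0.15, adjusted p = 0.022) and TFE3 at -0.25 (SE 0.077, adjusted p = 0.023). UVRAG, a partner of BECN1 in autophagosome maturation, was lower by -0.55 (SE 0.094, adjusted p = 5.5e-04), with a smaller ratio in EV (-0.23) than in MXD3 (-0.65) or STIM1::MXD3 (-0.76).

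**Figure D3:**
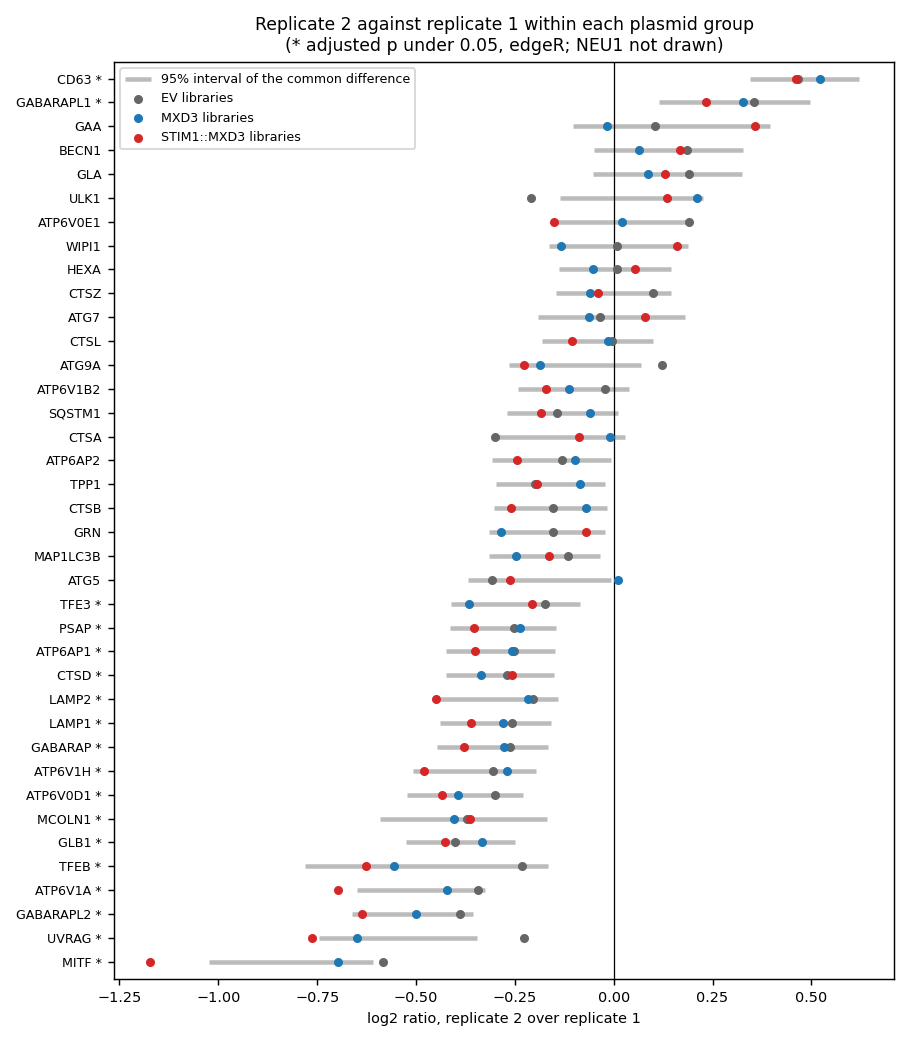
Log2 ratio of replicate 2 over replicate 1 within each plasmid group (points) for 38 members, with the 95% interval of the difference common to the groups (grey bars) and an asterisk at genes called by edgeR. MITF lies at the bottom with ratios of -0.58, -0.70 and -1.17, and CD63 at the top with ratios of 0.47, 0.52 and 0.46.

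Of the remaining genes called lower, 4 were V-ATPase members: ATP6V1A (-0.49, SE 0.077), ATP6V0D1 (-0.38), ATP6V1H (-0.35) and ATP6AP1 (-0.29). The lysosomal membrane genes LAMP1 (-0.30), LAMP2 (-0.29) and MCOLN1 (-0.38), a calcium channel, were lower too. So were CTSD (-0.29), GLB1 (-0.39), PSAP (-0.28), GABARAP (-0.31) and GABARAPL2 (-0.51). CD63, unlike the other 3 membrane genes, was higher in replicate 2 by 0.48 (SE 0.065, adjusted p = 8.3e-05), as was GABARAPL1 by 0.31 (SE 0.090, adjusted p = 0.018). SQSTM1 was not called (-0.13, SE 0.066, adjusted p = 0.156), and ATG5 and ATG7 were not either.

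Members with and without the E-box core were then set side by side. The 7 readable members with CACGTG had a median log2 fold change of -0.02 in MXD3 against EV, -0.10 in STIM1::MXD3 against EV and -0.08 between the constructs. The 22 members with a window but no CACGTG had medians of -0.11, -0.07 and 0.08. Between the constructs, 6 of the 7 with the motif were negative and 6 of the 22 without, beside 47.9% of all genes tested. By replicate pair, MCOLN1, CTSA, GAA and ATP6V0D1 were lower in both. CD63 was higher in both, and LAMP1 and CTSD differed in sign between the pairs. GAA had the largest difference in that comparison, and none of the genes passed the test. The difference between the sets was not tested. The further lysosomal and autophagy genes had medians of 0.02 with and 0.05 without the motif between the constructs. Of these, 9 of 21 with and 26 of 69 without the motif were negative, so their shares were closer together.

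**Figure D4:**
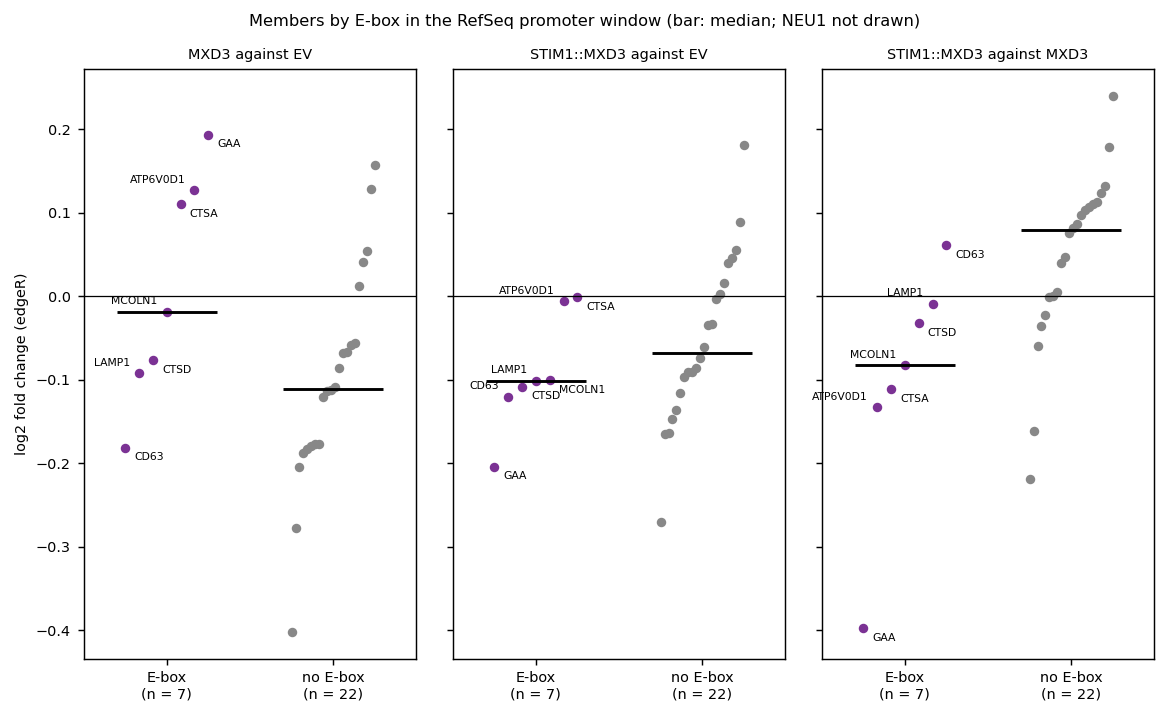
Log2 fold changes of 7 members with and 22 without CACGTG in the promoter window, in 3 comparisons, with a bar at the median of each set. In the right panel the medians are -0.08 and 0.08, and GAA lies lowest at -0.40.

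The other genes of the pathway, listed apart from the members, were tested in the same fit. Of 118 further genes for lysosomal enzymes, membrane transport, V-ATPase subunits, nutrient sensing and autophagy, 114 were tested, and LIPA, CTSO, ULK2 and MAP1LC3A were below the filter. None of the 114 was called by edgeR in any comparison. Their median log2 fold change was -0.09 in MXD3 against EV, with 73 of 114 lower, -0.02 in STIM1::MXD3 against EV, with 65 lower, and 0.04 between the constructs, with 44 lower. Unadjusted p-values under 0.05 numbered 2, 1 and 1 in the same order, beside 1.86%, 0.953% and 1.01% of all genes. In replicate 2 against replicate 1, 45 of the 114 were called lower (all genes 16.1%) and 4 higher (all genes 13.1%), with a median of -0.18.

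Cathepsin F (CTSF), a cysteine protease whose promoter window also holds CACGTG, was the only one of the 114 called by edgeR with the replicate block, in MXD3 against EV (all genes 0.292%). It was at 13.6 and 12.6 CPM in EV, 22.6 and 23.6 in MXD3, and 17.4 and 20.9 in STIM1::MXD3, without overlap between any of the groups. The log2 fold change of MXD3 against EV was 0.82 (SE 0.16, adjusted p = 0.999, edgeR), with 0.82 (SE 0.13, adjusted p = 0.027) under the replicate block. STIM1::MXD3 against EV was 0.55 (SE 0.16, adjusted p = 1.00), and 0.54 (SE 0.13, adjusted p = 0.312) with the block. Between the constructs the value was -0.27 (SE 0.16, adjusted p = 1.00), and this does not show that the constructs differ for CTSF.

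DESeq2 with the replicate block called 3 of the 114 in MXD3 against EV, beside 1.54% of all genes. Besides CTSF these were HGSNAT, an acetyltransferase of heparan sulphate breakdown, and NBR1, an autophagy receptor related to SQSTM1. HGSNAT was at 13.0 and 14.1 CPM in EV, 20.2 and 20.5 in MXD3, and 14.2 and 19.2 in STIM1::MXD3, with a log2 fold change of MXD3 against EV of 0.59 (SE 0.16, adjusted p = 0.020, DESeq2 with the block). NBR1 was at 237 and 212 CPM in EV, 187 and 174 in MXD3, and 225 and 178 in STIM1::MXD3, with -0.32 (SE 0.096, adjusted p = 0.046, DESeq2 with the block). In edgeR without the block, adjusted p was 0.999 for both.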

How the data were processed

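Poly A RNA libraries of K562 cells were sequenced by the study. The authors deposited 1 table per library of raw, unnormalised counts by NCBI Gene identifier. The submitters' processing notes name HISAT2 2.2.1, featureCounts 2.0.1 and hg19, without their roles; annotation and use of strand are not given in the sources used here. Between 59.8% and 67.3% of counts from 1 to 39 were even numbers, so counts were also tested after division by 2.

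Counts were filtered with filterByExpr (15431 genes), scaled with TMM and tested with the two-sided quasi-likelihood F test of edgeR 4.0.16 (R 4.3.3), in 1 fit over all 6 libraries with groups from the labels and p-values adjusted by Benjamini-Hochberg over all genes, with a threshold of 0.05. Where nothing says otherwise, an adjusted p is from this fit. P-values rest on the spread between the 2 transfections within a group, pooled over all 3 groups and moderated across genes. Without the block, this spread includes the difference between replicate numbers. Symbols, transcript length and positions came from GRCh37. DESeq2 1.42.0, other scalings and filters, offsets for GC content and length, and leaving out each library were alternatives, and the fit was tested on simulated data. The groups share replicate numbers 1 and 2. Subtracting each group's mean, libraries that carry the same number correlated between groups (r = 0.621, 0.707 and 0.792 over 10250 genes averaging 5 CPM or more, and 0.270, 0.364 and 0.450 over all genes tested), so the numbers were taken to pair the libraries.

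The 39 symbols and the other lists were drawn up with earlier results of these data known, although the rule that picks their rows uses no measured value. Named members were the 3 lowest and 3 highest by log2 fold change in each comparison, the TFEB family, any member called in a fit and the highest in EV per role. Other members were named after their values were seen. Further genes of the pathway were named if called in a fit.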

Additional observations from a re-analysis of the deposited data

How the results depend on the processing

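With 2 libraries per group, the fit without the replicate block did not exclude log2 differences of 0.5 for many members. With the block, 35 to 37 of 38 intervals lay within 0.5. Each comparison rests on few degrees of freedom. No member was called under the other scalings and filters, the offsets, halved counts or the edgeR replicate block. DESeq2 with the replicate block called 1 member in MXD3 against EV, SQSTM1 (-0.28, adjusted p = 0.047; over all alternatives its adjusted p ran from 0.047 to 1.0). Among the other pathway genes in MXD3 against EV, the calls were 1 with the replicate block, 1 with the block and offsets for GC content and length, and 3 by DESeq2 with the block; the cause was not tested. The block changed no other call. TFEB in STIM1::MXD3 against EV turned to 0.022 with offsets for GC content and length.

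Leaving out 1 library at a time, the member median ran from -0.186 to 0.061 in STIM1::MXD3 against EV, from -0.176 to 0.009 in MXD3 against EV and from -0.105 to 0.132 between the constructs. The sign also turned for MITF in STIM1::MXD3 against EV (-0.97 to 0.20) and between the constructs (-0.57 to 0.60). It turned for TFE3 between the constructs (-0.12 to 0.22). For TFEB it turned in STIM1::MXD3 against EV (-0.35 to 0.27), MXD3 against EV (-0.41 to 0.13) and between the constructs (-0.24 to 0.40). NEU1, which could not be read, ran from -0.26 to 0.79 in STIM1::MXD3 against EV. No member was called without any 1 library.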
